A study of Mus musculus with 14 samples.

Results

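The 10 genes described here encode Id proteins and components of transforming growth factor-β (TGF-β) and bone morphogenetic protein (BMP) signaling: Id1, Id2, Id3, Bmp2, Tgfb1, Tgfbr1, Tgfbr2, Smad6, Smad7 and Skil. They were chosen by gene name with earlier results of the same samples in view, in which Id3 had been selected on its difference between 4OHT and ctrl supernatants. All 10 were found among the 55414 genes of the count table, and all 10 were among the 12851 genes with enough counts to be tested. Bmp2 entered the tested set through the groups in which it was high, since it was above the filter's level of 1.05 CPM (counts scaled to the library total) in both medium samples, all 3 4OHT samples and 1 ctrl sample, and in 0 samples of Fer1 and of 4OHT+Fer1.

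TGF-β and BMP ligands bind pairs of receptor kinases, which phosphorylate receptor-activated SMAD proteins that enter the nucleus together with Smad4. BMP ligands act mainly through Smad1 and Smad5, and the Id genes and Smad6 are among their best known targets. Id proteins lack a DNA-binding region of their own and pair with E proteins, which keeps these transcription factors off DNA. In macrophages TGF-β is known for restraining inflammatory gene expression, and Id3 is known as a factor of liver macrophage identity.

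Primary bone marrow-derived macrophages (pBMDMs) from wild-type mice, differentiated with M-CSF, received supernatant from cultures of the mouse embryonic fibroblast (MEF) line Pfa1, passed through a filter, for 24 h, and their polyadenylated RNA was read by 3′-end sequencing. In Pfa1 MEFs, 4-hydroxytamoxifen (4OHT) deletes the gene for GPX4, the enzyme that removes lipid hydroperoxides, so that the MEFs die by ferroptosis, and Ferrostatin-1 (Fer1) is a radical trap that blocks this death. The groups were supernatant of untreated MEFs (ctrl, n = 3), of MEFs with Fer1 (n = 3), of MEFs with 4OHT and Fer1 (4OHT+Fer1, n = 3), of MEFs with 4OHT alone (4OHT, n = 3), and medium titled as a control that is taken here as fresh medium without MEF supernatant (medium, n = 2). The Gpx4 deletion was in the MEFs, which are a single line, and not in the macrophages, so that Gpx4 counts in these samples are no check of the labels. Macrophages under 4OHT or Fer1 supernatant also received what was left of these agents, which cannot be told apart from what the MEFs released. The labels sort the supernatants only as ferroptotic or non-ferroptotic stimuli, and the agents are in the sample titles.

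Total counts ran from 7823051 to 11052352 per sample. All 11 macrophage markers, among them Adgre1 and Csf1r, were detected, with a summed level of 23470 to 48530 CPM per sample. Markers of other cells were far lower. The 15 fibroblast markers summed to 38.4 to 298 CPM with overlapping ranges in all 5 groups, and the 6 lymphocyte markers to at most 0.531 CPM, with Cd3e, Cd3g and Nkg7 at 0 in all 14 samples. The 7 granulocyte markers summed to 35.2 to 48.6 CPM in the medium samples and to 2.87 to 25.5 CPM in the 12 supernatant samples, with the defining genes Ly6g and Elane at 0 throughout. The 5 dendritic markers summed to 1.89 to 2.67 CPM in medium and to at most 1.29 CPM elsewhere, and the 8 endothelial markers to 46.4 to 67.1 CPM in medium and 14.9 to 54.9 CPM elsewhere, with Cldn5 at 0. The granulocyte and dendritic sums thus differed between medium and supernatants in the direction of the member genes described below, and their part in those results was not tested.

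The 10 genes fell into 3 patterns. Id3, Bmp2 and Smad6 were highest in medium, low under the 3 non-ferroptotic supernatants and intermediate under the 4OHT supernatant. Id1, Id2 and Skil were highest in medium and lower under all 4 supernatants. For Tgfb1, Tgfbr1, Tgfbr2 and Smad7 the medium samples lay within the range of the supernatant samples. In these bulk samples, fewer cells of a type and less RNA per cell cannot be told apart. For 6 of the 10 genes (Id1, Id2, Id3, Bmp2, Smad6 and Skil) all 12 supernatant samples lay below both medium samples, which was the case for 6.51% of all tested genes. For 2 of the 10, Id3 and Bmp2, all 3 4OHT samples lay above the other 9 supernatant samples, against 0.965% of all tested genes. Both counts use the 4OHT and ctrl samples on which Id3 was chosen. Bmp2, which is in both, was tested through the groups in which it was high. Both counts are therefore a description.

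**Figure D1:**
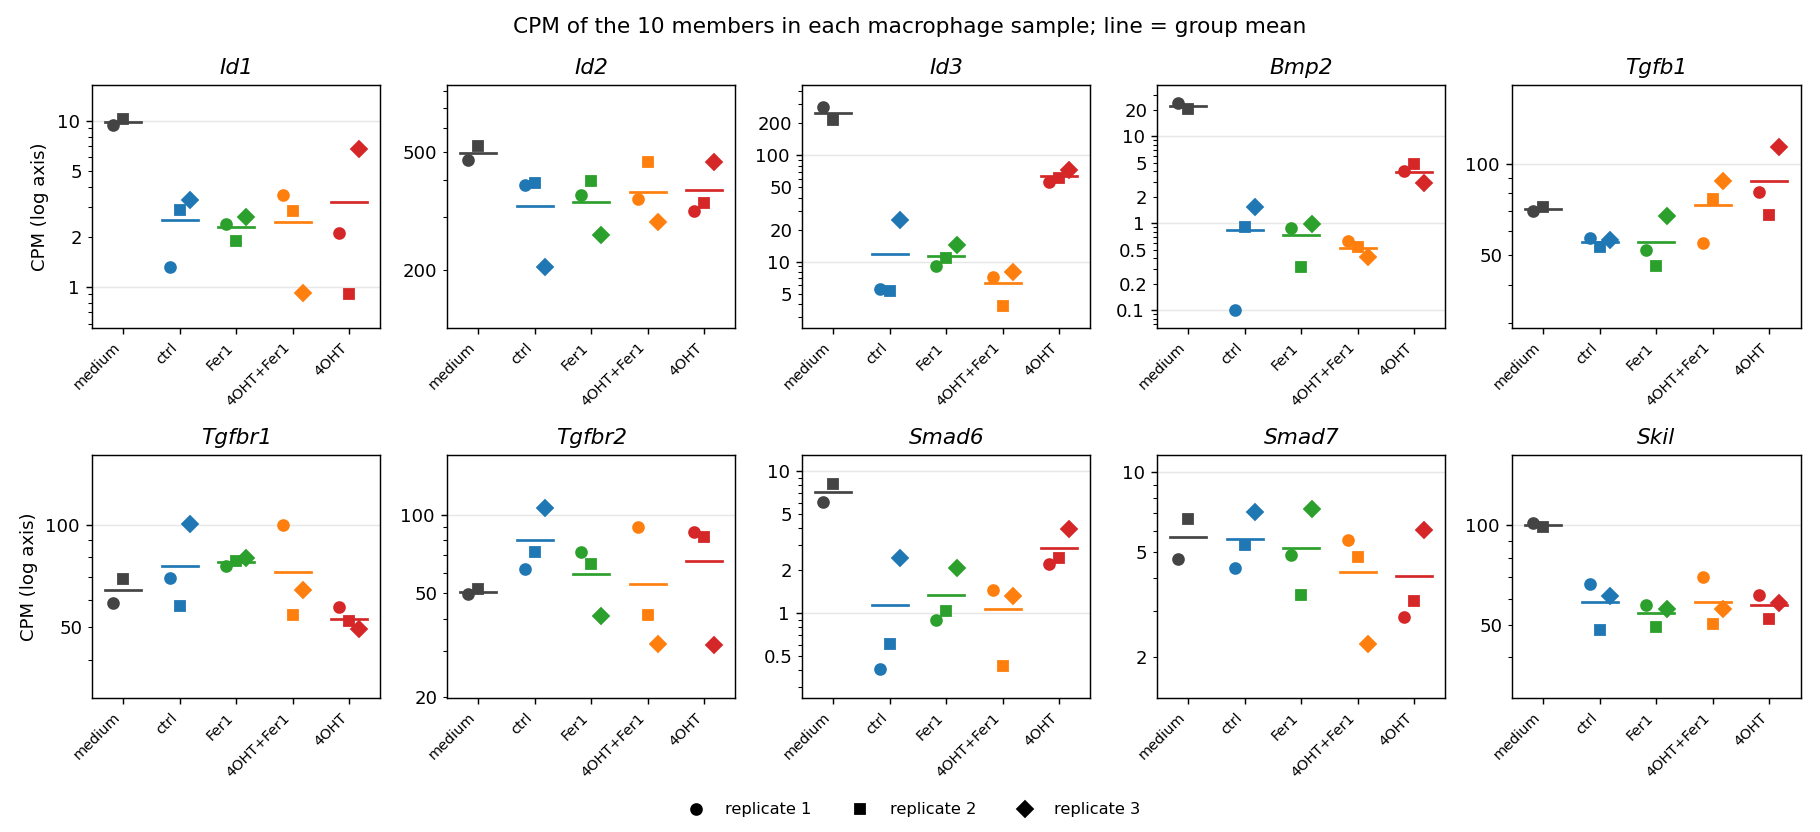
CPM of each member gene (log axis, a separate range for each gene) in every sample of the 5 groups, with symbols for the replicate numbers and a line at the group mean. Id3, Bmp2 and Smad6 are highest in the 2 medium samples, and for Id3 and Bmp2 the 3 4OHT samples lie between medium and the other 9 supernatant samples.

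Id3, an inhibitor of E protein DNA binding, lies at GRCm38 chr4:136143497-136145755 on the plus strand. It was at 286 and 217 CPM in the medium samples. It was at 5.57, 5.33 and 24.6 CPM in ctrl, at 9.03, 10.8 and 14.3 CPM in Fer1, and at 7.22, 3.82 and 7.99 CPM in 4OHT+Fer1. The 4OHT samples were at 56.3, 60.8 and 72.5 CPM. Each of the 9 samples under non-ferroptotic supernatant was thus below each 4OHT sample, and each 4OHT sample was below each medium sample. The mean under 4OHT supernatant was 25.2% of the medium mean, against 4.71% under ctrl, 4.54% under Fer1 and 2.52% under 4OHT+Fer1. In the order of group means, ctrl and Fer1 overlapped and the other neighbors did not. The ctrl sample of replicate 3 was the highest of the non-ferroptotic samples.

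Bmp2, a secreted BMP ligand (GRCm38 chr2:133552159-133562885, plus strand), followed the same order at a lower level. It was at 24.4 and 20.7 CPM in medium and at 4.0, 4.81 and 2.91 CPM in 4OHT. In ctrl it was at 0.101, 0.905 and 1.55 CPM, in Fer1 at 0.893, 0.313 and 0.991 CPM, and in 4OHT+Fer1 at 0.627, 0.531 and 0.410 CPM. These 9 samples held 1 to 14 counts each. The ctrl sample with 1 count and the Fer1 sample with 3 counts were at or under a floor of 3 counts. This floor is the level that an observed count of 0 still allows. The 4OHT samples held 23 to 53 counts. The 4OHT mean was 17.3% of the medium mean, and the 3 other supernatant groups overlapped with each other at 2.32% to 3.77% of it.

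Smad6, an inhibitory SMAD that acts mainly on BMP receptors (GRCm38 chr9:63953076-64022059, minus strand), was at 6.10 and 8.12 CPM in medium. The 4OHT samples were at 2.21, 2.45 and 3.92 CPM. It was at 0.405, 0.603 and 2.43 CPM in ctrl, at 0.893, 1.04 and 2.09 CPM in Fer1, and at 1.46, 0.425 and 1.33 CPM in 4OHT+Fer1. The 4OHT group therefore overlapped with ctrl, through the ctrl sample of replicate 3, and lay above the Fer1 and 4OHT+Fer1 groups. The 4OHT mean was 40.3% of the medium mean and the other supernatant means were 15.1% to 18.9% of it.

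The start regions of Id3 and Smad6 are shown because these genes moved together and because both are known SMAD targets. RefSeq windows of 250 bases before to 50 after the start site were at hand for 6 of the 10 genes on GRCm38.p6 (Id2, Id3, Smad6, Tgfb1, Tgfbr1 with 2 start sites, and Tgfbr2), and Id1, Bmp2, Smad7 and Skil had no entry. Both strands were searched for the palindromic SMAD element GTCTAGAC, for the SMAD box GTCTG, which reads CAGAC on the opposite strand of the duplex, and for the palindrome GGCGCC, motifs that were picked after the sequences had been read and that do not overlap each other. The stretches below are printed 5′ to 3′ on the gene's strand, with motif matches in capitals.
Smad6, chr9:64022045-64022074, minus strand: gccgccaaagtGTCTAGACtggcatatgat
Id3 upstream match, chr4:136143643-136143672, plus strand: tgtcctcggcgtCAGACcagcctaaggaag
Id3 downstream match, chr4:136143742-136143771, plus strand: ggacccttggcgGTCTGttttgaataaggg
GTCTAGAC was in 1 of the 7 member windows, that of Smad6, where it spans the start site, and in 0.213% of all 32851 windows. The SMAD box occurred 2 times in the Id3 window, 167 and 68 bases before its start site, and was also in 1 of the Tgfbr1 windows and in that of Tgfbr2. It was in 49.6% of all windows. GGCGCC was in the Id2 window and in 1 Tgfbr1 window, and in 11.9% of all windows. The Id3 matches lie inside the span of the Id3 gene in GENCODE M21, which starts farther upstream than this start site. These are matches of letters and no measurement of binding.

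Id1, a close relative of Id3 and in many cells its partner as a BMP target (GRCm38 chr2:152736251-152737410, plus strand), was low throughout. It was at 9.40 and 10.2 CPM in medium, which was 74 and 92 counts. It was at 1.32, 2.92 and 3.31 CPM in ctrl, at 2.38, 1.88 and 2.64 CPM in Fer1, and at 3.56, 2.87 and 0.922 CPM in 4OHT+Fer1. The 4OHT samples were at 2.11, 0.907 and 6.71 CPM and spread more widely than any other group of this gene, with an SD of 3.06 CPM around a mean of 3.24 CPM. All 4 supernatant groups overlapped with each other, at 23.4% to 33.0% of the medium mean.

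**Figure D2:**
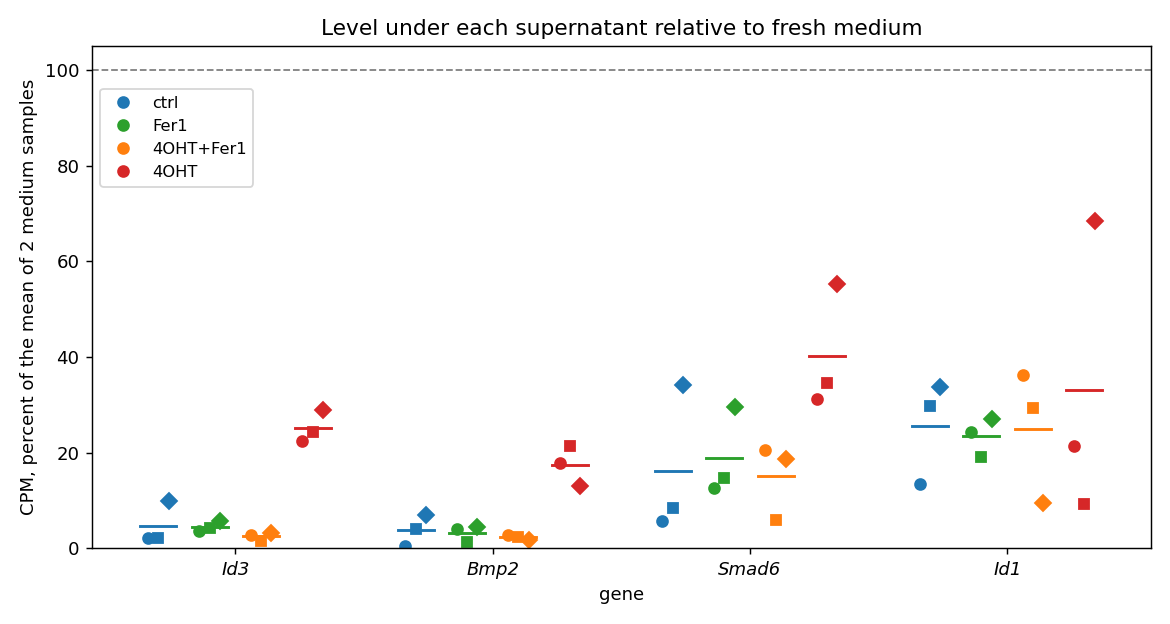
Each sample's CPM of Id3, Bmp2, Smad6 and Id1 under the 4 MEF supernatants as a percentage of the mean of the 2 medium samples (dashed line at 100), with a line at each group mean and the replicate numbers as circle (1), square (2) and diamond (3). The 4OHT mean is 25.2% for Id3, 17.3% for Bmp2, 40.3% for Smad6 and 33.0% for Id1, and the 4OHT samples of Id1 overlap with those of the other supernatants.

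Id2 had the most counts of the 10 genes in every sample. It encodes an Id protein known for its role in dendritic and innate lymphoid cells (GRCm38 chr12:25093799-25097140, minus strand). It was at 468 and 524 CPM in medium. Under the supernatants it ran from 204 to 462 CPM, and the 4 group means lay between 328 and 371 CPM with overlapping samples. Skil, which encodes the SMAD corepressor SnoN (GRCm38 chr3:31095058-31122577, plus strand), was at 102 and 98.6 CPM in medium and at 48.4 to 69.9 CPM in the 12 supernatant samples. Its 4 supernatant means were within 54.3% to 58.5% of the medium mean.

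Tgfb1, the main TGF-β ligand of macrophages (GRCm38 chr7:25687002-25705077, plus strand), was at 70.1 and 72.0 CPM in medium. It was at 56.8, 53.1 and 56.2 CPM in ctrl, at 52.2, 46.2 and 67.4 CPM in Fer1, at 54.7, 76.8 and 87.9 CPM in 4OHT+Fer1 and at 81.0, 67.8 and 114 CPM in 4OHT. Medium lay within the range of the 4OHT samples, and each 4OHT sample was above each ctrl sample. Tgfbr1, the type I receptor (GRCm38 chr4:47353222-47414931, plus strand), was at 58.8 and 69.3 CPM in medium, at 49.4 to 57.0 CPM in 4OHT and at 54.2 to 100.2 CPM in the other 9 supernatant samples. Tgfbr2, the type II receptor (GRCm38 chr9:116084293-116175360, minus strand), was at 49.5 and 51.7 CPM in medium and at 31.8 to 106 CPM under supernatants, with the widest spread in 4OHT+Fer1 (SD 31.1 CPM, n = 3). Smad7, the inhibitory SMAD that acts on TGF-β receptors, was at 4.70 and 6.68 CPM in medium and at 2.25 to 7.27 CPM under supernatants, and its groups all overlapped. No other annotated gene overlaps any of the 10 genes (0 of 10 in GENCODE M21).

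The comparison of Fer1 supernatant with medium asks what supernatant of live MEFs with Fer1 changes in these macrophages. Release by the MEFs, their uptake from the medium, left-over Fer1 and a possible difference in base medium cannot be told apart in it. The paper lists RPMI for primary macrophages and DMEM for Pfa1 MEFs. The sample titles do not name the base medium of the medium samples, which may also enter the other comparisons with medium. The samples of this comparison took no part in the 4OHT against ctrl contrast on which Id3 was chosen. The Fer1 samples did enter the interaction that was also known for Id3. In this and the other comparisons a gene passed where its log2 fold change exceeded 1 in size and edgeR's quasi-likelihood test gave a Benjamini-Hochberg adjusted p under 0.05 over all 12851 genes. Id3, Bmp2, Smad6 and Id1 fell under Fer1 supernatant, which was 4 of the 10 genes, and 0 of 10 rose. Over all tested genes 3.18% fell and 4.03% rose. Bmp2 was at the filter's level in 0 Fer1 samples and was tested because it was high elsewhere, so its place in the count of 4 is a description.

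Id3 fell by 4.77 on the log2 scale (SE 0.40, adjusted p = 3.50e-05, edgeR's quasi-likelihood test), a 27.3-fold lower level, and passed under all alternatives run, with adjusted p from 7.63e-30 to 0.0158. Bmp2 fell by 5.01 (SE 0.58, adjusted p = 0.000230, edgeR), given as a description because of the filter. With no filter on low counts, its adjusted p was 7.13e-08 (edgeR). Without replicate 2 it was 0.0549 (edgeR; range over alternatives, DESeq2 included, 1.15e-14 to 0.0549). Smad6 fell by 2.87 (SE 0.49, adjusted p = 0.00265, edgeR). It did not pass without replicate 2, where the adjusted p was 0.211, nor without the replicate number as a block, where it was 0.0571 (edgeR; range 4.71e-06 to 0.211). Id1 fell by 2.28 (SE 0.66, adjusted p = 0.0470, edgeR). It did not pass in 3 of the alternatives, with an adjusted p of 0.318 without replicate 1, 0.482 without replicate 2 and 0.111 without the replicate block (edgeR; range 6.23e-06 to 0.482). All 4 were lower under Fer1 in 2 of 2 same-numbered pairs.

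Skil had a log2 fold change of -0.90 (SE 0.15, adjusted p = 0.00222, edgeR's quasi-likelihood test), below the fold threshold, so that 5 of the 10 genes passed where no fold threshold was set. The changes of Tgfb1 (-0.51, SE 0.19), Id2 (-0.46, SE 0.27), Smad7 (-0.29, SE 0.45), Tgfbr1 (0.24, SE 0.26) and Tgfbr2 (0.37, SE 0.42) did not pass, with adjusted p from 0.135 for Tgfb1 to 0.776 for Smad7 (edgeR). The 95% interval of the log2 fold change was -1.05 to 0.12 for Id2, -0.33 to 0.81 for Tgfbr1 and -0.55 to 1.28 for Tgfbr2.

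**Figure D3:**
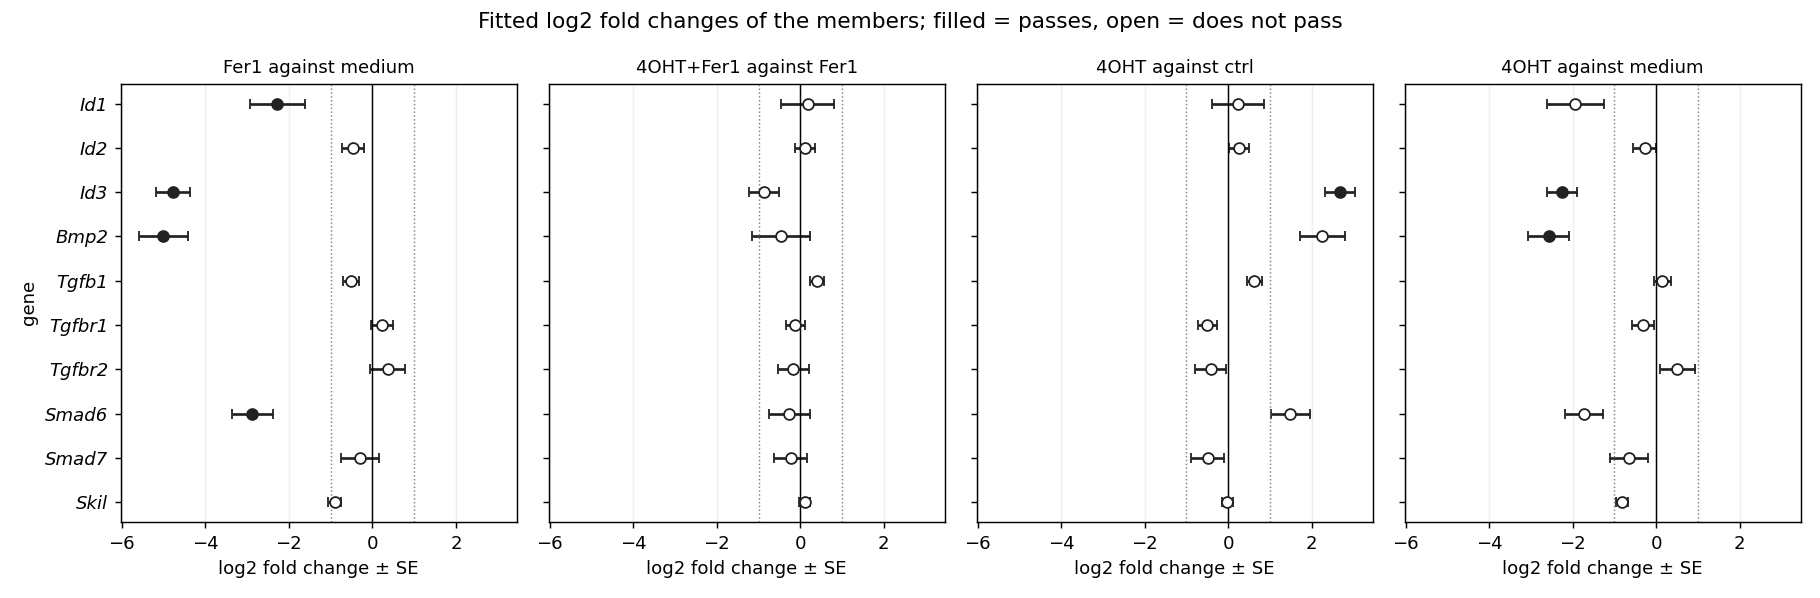
Fitted log2 fold changes of the 10 genes (points, with bars of 1 SE) in 4 comparisons, with dotted lines at -1 and 1, filled points for genes that passed and open points for the others. In Fer1 against medium Id1, Id3, Bmp2 and Smad6 lie between -5.01 and -2.28, in 4OHT+Fer1 against Fer1 the points lie between -0.87 and 0.41, and the last 2 panels share samples with the choice of Id3 and are descriptive.

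The comparison of 4OHT+Fer1 with Fer1 supernatant asks what 4OHT and the loss of GPX4 do where the MEFs are kept alive. Here 0 of the 10 genes passed edgeR's quasi-likelihood test, and 0 passed with DESeq2. At an unadjusted p under 0.05, 2 of the 10 differed (edgeR), Id3 with a log2 fold change of -0.87 (SE 0.37) and Tgfb1 with 0.41 (SE 0.17). Over all tested genes 0.0233% passed, and 266 of the 12851 had an unadjusted p under 0.05 (edgeR). The 95% interval was -1.67 to -0.06 for Id3, -1.98 to 1.04 for Bmp2 and -1.35 to 0.83 for Smad6. Id3 was lower under 4OHT+Fer1 in 3 of 3 same-numbered pairs, Bmp2 and Smad6 each in 2 of 3. That Id3 did not increase with 4OHT in the presence of Fer1 was known when the genes were chosen.

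The ferroptotic supernatant is described by 4OHT against ctrl. Id3 was chosen on this contrast, so nothing is read from the thresholds here, which are given as a description. Id3 was higher by 2.66 on the log2 scale (SE 0.36), Bmp2 by 2.25 (SE 0.55) and Smad6 by 1.49 (SE 0.47), each in 3 of 3 same-numbered pairs. Of the 10 genes 1, Id3, was past both thresholds, as were 0.350% of all tested genes upward and 0.763% downward. The same-numbered differences of Id3 were 3.29, 3.46 and 1.55, with the smallest in replicate 3. Tgfb1 was higher by 0.63 (SE 0.17). The fold changes were 0.25 (SE 0.24) for Id2, 0.22 (SE 0.62) for Id1, -0.02 (SE 0.13) for Skil, -0.42 (SE 0.37) for Tgfbr2, -0.49 (SE 0.40) for Smad7 and -0.50 (SE 0.23) for Tgfbr1. Without replicate 3 Id1 had -0.54, Id2 -0.27 and Tgfbr2 0.31, each of the opposite sign. The differences between the Id genes were not tested. The count of 1 past both thresholds was 0 without replicate 1, without replicate 2, without the replicate block and in a fit of only these groups, and 2, with Bmp2 added, without replicate 3.

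Against 4OHT+Fer1, which shares the 4OHT samples with the previous comparison, the 4OHT group was higher by 3.37 (SE 0.37) in Id3, 2.90 (SE 0.58) in Bmp2 and 1.40 (SE 0.47) in Smad6, each in 3 of 3 same-numbered pairs. Id3 and Bmp2 were past both thresholds. Of all tested genes 0.296% were so upward and 0.731% downward. The other 7 genes had log2 fold changes between -0.45 (Tgfbr1) and 0.31 (Tgfbr2). The count of 2 was 0 without replicate 1 and without replicate 2, and 1, Id3 alone, without the replicate block. The difference between the 4OHT effect without and with Fer1 was 3.53 (SE 0.51) for Id3, 2.72 (SE 0.89) for Bmp2 and 1.75 (SE 0.68) for Smad6. Id3 was the only member past both thresholds in this interaction, as were 0.0311% of all tested genes.

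Although the 4OHT group was above the other supernatants in Id3 and Bmp2, it stayed below medium. The log2 difference of 4OHT against medium was -2.26 (SE 0.36) for Id3, -2.58 (SE 0.49) for Bmp2, -1.94 (SE 0.68) for Id1, -1.73 (SE 0.46) for Smad6 and -0.82 (SE 0.15) for Skil. Id3 and Bmp2 were past both thresholds. Of all tested genes 1.64% were so downward and 1.42% upward. This count was 0 without replicate 1 and without replicate 2, 1 without the replicate block and 4, with Id1 and Smad6, in a fit of only the 2 groups. Ctrl against medium, which shares its ctrl and its medium samples with comparisons above, gave log2 differences of -4.93 (SE 0.42) for Id3, -4.83 (SE 0.59) for Bmp2, -3.22 (SE 0.51) for Smad6, -2.17 (SE 0.66) for Id1 and -0.80 (SE 0.15) for Skil. Id3, Bmp2 and Smad6 were past both thresholds, against 3.69% of all tested genes downward and 4.10% upward, and Id3 alone was so without replicate 2.

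The other genes of the pathway were read from 7 lists of 71 genes, of which 42 were tested. In Fer1 against medium 3 of the 42 rose and 4 fell, against 4.03% and 3.18% of all tested genes, with a median log2 fold change of -0.41, against -0.02. Of the 42, 3 were at the filter's level in 0 Fer1 samples, among them Tgfb3 and Ltbp2, so that these were tested through other groups and their place in the count is a description. In 4OHT+Fer1 against Fer1 0 of the 42 passed (edgeR). Of the 42, 2 had an unadjusted p under 0.05, as did 266 of the 12851 tested genes (edgeR). In 4OHT against ctrl 1 was past both thresholds and in 4OHT against 4OHT+Fer1 2 were, Grem1 and Thbs1, all upward, against 0.350% and 0.296% of all tested genes. In the latter comparison Thbs1 was not past them without replicate 1 or 2 or in a fit of only these groups, and Grem1 was not in these fits, without replicate 3 or without the replicate block. The lists were drawn up with results of these data known.

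Of 5 tested ligands, Tgfb3 was lower by 3.66 in Fer1 against medium (SE 0.44). Tgfb3 was at the filter's level in both medium samples and in 0 Fer1 samples, so this is a description. It was at 6.60 and 5.45 CPM in medium and at 0.595, 0.313 and 0.771 CPM in Fer1, and it was no higher than 0.886 CPM in 4OHT. In 4OHT against ctrl Tgfb3 had a log2 fold change of -0.12 (SE 0.44). Inhba, a subunit of the activins, fell by 1.70 in Fer1 against medium (SE 0.46, adjusted p = 0.0351, edgeR). It was at 7.87 and 2.78 CPM in medium and at 0.209 to 3.19 CPM in Fer1, so these groups overlapped. Gdf15, a stress-induced ligand, rose by 1.74 in Fer1 against medium (SE 0.35, adjusted p = 0.00721, edgeR). Tgfb2 had -0.73 (SE 0.64) in Fer1 against medium and -0.92 (SE 0.62) in 4OHT against ctrl.

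None of the 9 tested receptors other than the members passed (0 of 9 by edgeR in Fer1 against medium). Of the 9, 2 had an unadjusted p under 0.05, as did 2929 of the 12851 tested genes (edgeR). All 9 had a log2 fold change below 0, from -1.10 to -0.15, and 6248 of the 12851 tested genes had one above 0. Eng, endoglin, a coreceptor of the TGF-β family, had -0.75 (SE 0.19, adjusted p = 0.0242, edgeR), below the fold threshold. Acvr1, a BMP type I receptor, ranged from 3.29 to 22.0 CPM under supernatants, with log2 fold changes of -0.41 (SE 0.64) in Fer1 against medium and -0.32 (SE 0.58) in 4OHT against ctrl. Acvr2b, an activin type II receptor, had -0.20 (SE 0.36) and 0.77 (SE 0.32) in the same comparisons.

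The signal SMADs did not pass either (0 of 5 by edgeR in Fer1 against medium). Of the 5, 1 had an unadjusted p under 0.05, as did 2929 of the 12851 tested genes (edgeR). Smad1 was at 47.4 and 46.3 CPM in medium, at 41.1 to 48.0 CPM in ctrl and at 32.8 to 35.9 CPM in 4OHT. It was at 36.0 to 47.5 CPM in Fer1 and at 32.8 to 54.2 CPM in 4OHT+Fer1, and the latter overlapped with 4OHT. Its log2 fold change was -0.25 (SE 0.17) in 4OHT against 4OHT+Fer1, and in 4OHT against ctrl it was -0.40 (SE 0.17). Smad5, which also transmits BMP signals, had 0.10 (SE 0.15), and Smad3, which transmits TGF-β signals, had 0.39 (SE 0.31). Of the E proteins that Id proteins bind, 0 of 3 passed in any comparison (edgeR; 0 at an unadjusted p under 0.05), with Tcf3 at 14.3 to 22.2 CPM, Tcf4 at 396 to 646 CPM and Tcf12 at 54.4 to 79.4 CPM over the 14 samples, and their log2 fold changes in Fer1 against medium lay between -0.09 and -0.03.

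Among inhibitors and corepressors, Grem1, gremlin, a secreted antagonist of Bmp2, was the 1 pathway gene past both thresholds in 4OHT against ctrl, with a log2 fold change of 2.14 (SE 0.30). It was at 10.6, 3.81 and 19.2 CPM in 4OHT and at 3.04, 0.804 and 3.53 CPM in ctrl, so each 4OHT sample was above each ctrl sample, and at 6.99 and 1.45 CPM in medium. Fibroblasts are a known source of gremlin. The fibroblast markers summed to 42.8 to 143 CPM in 4OHT and 38.4 to 108 CPM in ctrl, and their part in this difference was not tested. Grem1 was not past the thresholds without replicate 1 or 2, without the block or in a fit of only these groups. Tgif1, a SMAD corepressor, was at 56.5 and 58.2 CPM in medium, 27.6 to 38.0 CPM in ctrl and 27.2 to 49.9 CPM in 4OHT. Pmepa1, a feedback inhibitor of TGF-β signaling, had -0.36 (SE 0.25) in 4OHT against ctrl.

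Of the 8 tested genes that store or activate latent TGF-β, Thbs1, thrombospondin 1, which can activate the latent complex, had its highest levels in medium and in 4OHT. It was at 74.7 and 84.1 CPM in medium, at 21.4, 17.5 and 28.3 CPM in ctrl, at 22.7, 14.9 and 26.8 CPM in Fer1 and at 11, 7.75 and 18.5 CPM in 4OHT+Fer1. In 4OHT it was at 76.8, 86.8 and 32 CPM, above the other 9 supernatant samples and, in replicates 1 and 2, at the level of medium. It fell by 2.00 in Fer1 against medium (SE 0.42, adjusted p = 0.00990, edgeR's quasi-likelihood test) and was higher by 2.47 (SE 0.40) in 4OHT against 4OHT+Fer1. Ltbp2, a latent TGF-β binding protein, was lower by 3.40 in Fer1 against medium (SE 0.66), at 0.104 to 4.68 CPM in all samples. Ltbp2 was at the filter's level in 0 Fer1 samples, so this is a description. Lrrc32, which tethers latent TGF-β to the cell surface, had -1.46 (SE 0.74) and did not pass. In 4OHT against ctrl the median of the log2 fold changes was 0.98 for these 8 genes and 0.01 for all tested genes, and 0 of the 8 were past both thresholds.

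Of 4 tested target genes of TGF-β, 2 rose in Fer1 against medium. Tgfbi, a secreted matrix protein induced by TGF-β, was at 220 and 252 CPM in medium and at 877, 937 and 580 CPM in Fer1, and it rose by 1.95 (SE 0.18, adjusted p = 6.39e-05, edgeR's quasi-likelihood test). Runx3, a transcription factor in the pathway, rose by 1.22 (SE 0.32, adjusted p = 0.0297, edgeR). In 4OHT against ctrl Tgfbi had -0.69 (SE 0.15), with 628, 533 and 294 CPM in 4OHT below 915, 769 and 588 CPM in ctrl at the same replicate number. Runx3 had -1.05 (SE 0.27) and Ccn2, at 0 to 4.20 CPM, -0.42 (SE 1.31). Of the 7 pathway genes called in Fer1 against medium, Tgfbi kept its call under all alternatives run, and the other 6 each lost it without replicate 1 and without replicate 2. Inhba, Gdf15, Ltbp2 and Runx3 also lost it without the replicate block. The calls of Tgfb3 and Ltbp2 are a description. A gene annotated on the opposite strand overlaps 11 of the 22 pathway genes named here, among them Tgfb3, Inhba, Ltbp2, Thbs1 and Runx3, and use of strand in the counting is not given in the sources used here.

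**Figure D4:**
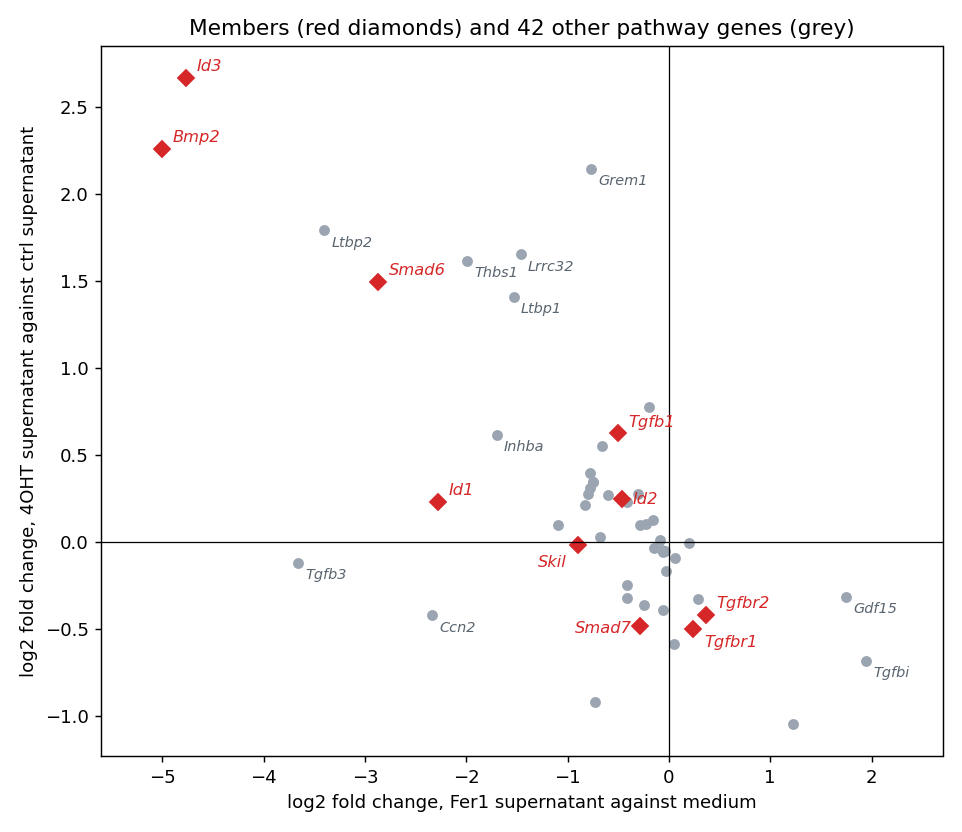
Log2 fold changes in Fer1 against medium (horizontal axis) and in 4OHT against ctrl (vertical axis), which share no samples, for the 10 genes (red diamonds) and the 42 other tested pathway genes (grey points, named where a value exceeds 1.5 in size). Id3, Bmp2 and Smad6 lie at the upper left, with -4.77 and 2.66 for Id3, while Id1 and Tgfb3 lie to the left near a vertical value of 0.

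Across the 14 samples, log2 CPM of Id3 went most closely with that of Bmp2 (Pearson r = 0.95) and Smad6 (r = 0.94) among the 10 genes, and Bmp2 with Smad6 at r = 0.88. Over the 12 supernatant samples alone these values were 0.88, 0.88 and 0.76. Id1 followed Id3 at r = 0.60 over 14 samples and 0.13 over the 12 supernatant samples. Points share the library and its scaling, and the medium samples stand apart. Over all tested genes with a symbol other than a predicted one, the genes most like Id3 were Cyria, a regulator of Rac1, with r = 0.97, then Rilpl2, Phlpp1, a phosphatase that acts on Akt, and Cytip, each with r = 0.95, and Bmp2. Cytip had a mean of 89.8 CPM in medium, 63.3 CPM in 4OHT and 21.4 to 24.0 CPM in the other supernatant groups. Those most like Id1 were Dgkg, a diacylglycerol kinase (r = 0.88), Phlpp2 (r = 0.84), Lpl, lipoprotein lipase (r = 0.83), Prdm11 and St3gal5, which makes the ganglioside GM3 (each r = 0.81). Over the 12 supernatant samples alone, r was 0.54 to 0.75 for these genes. For those most like Id3 it was 0.88 to 0.94 there. Dgkg had a mean of 32.4 CPM in medium and 9.29 to 10.3 CPM in the 4 supernatant groups.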

How the data were processed

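The 10 genes and the gene lists were chosen with earlier results of these data known. The deposited values are estimated counts per gene (expected counts, unit of the whole table), made by the authors with nf-core RNA-seq, STAR 2.7.10a and Salmon 1.5.2 from single-end QuantSeq 3′ reads. Such counts do not scale with transcript length. The methods name the human build GRCh38 and the submitters' processing notes list GRCh38 and GRCm38, while the gene identifiers are mouse. The deposited table of the authors' own comparisons (fold changes and p-values) was not used.

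Counts were rounded (30109 values were not whole), scaled by TMM (factors 0.910 to 1.06) and filtered with filterByExpr at a minimum count of 10. One edgeR 4.0.16 quasi-likelihood model in R 4.3.3 held all 14 samples with the group and, as a block, the replicate number of the titles, and p-values were adjusted by the Benjamini-Hochberg method. The block stands for the mouse ID of the study's design, which is an assumption. Samples with the same number in different groups deviated together from their group means (26 pairs, median r = 0.25, 21 over 0.1, lowest 0.00). The median was -0.14 over 52 pairs with different numbers. Deviations within a group cancel out, so this second value follows in part from the first. The labels do not say that replicates are separate mice, so p-values measure the spread between these samples. No 2 replicates agreed within sampling noise (chi-square per degree of freedom 11.7 to 86.8 over 13 pairs). SE is the size of the log2 fold change divided by the square root of F. Totals of 7823051 to 11052352 counts put 3 counts at 0.272 to 0.381 CPM, a floor that covers counting error only. The fit was also run on simulated counts with changes planted only in the Fer1 group. The simulated counts had no replicate effect, and genes of low counts got no planted change. The block and the calls of such genes were thus not checked.

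Genes named were the 10 members, every listed pathway gene that passed in Fer1 against medium, 4OHT+Fer1 against Fer1, 4OHT against ctrl or 4OHT against 4OHT+Fer1, up to 3 genes per list with the largest change in 4OHT against ctrl, and the 5 genes most like Id3 and Id1. Of the listed genes, 1 pathway gene and 1 marker are not reported here and were left out of the list counts. Alternatives were DESeq2 1.42.0, no replicate block, median-of-ratios scaling, no filter, at least 20 counts in 3 samples, a fit of the groups compared, no fold threshold, and each replicate number left out of all groups.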

Additional observations from a re-analysis of the deposited data

Results flagged for a closer look

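Id3 responded to 4OHT supernatant differently with and without Ferrostatin-1. Its log2 fold change was 2.66 in 4OHT against ctrl and -0.87 in 4OHT+Fer1 against Fer1, and the difference of these effects was 3.53 (SE 0.51, adjusted p = 0.0489 by edgeR's quasi-likelihood interaction test over 12851 genes, 4 of which passed). This result was known when the 10 genes were chosen, so its p is not independent evidence. The 4OHT samples of Id3 were higher than their same-numbered ctrl samples in 3 of 3 pairs, and the 4OHT+Fer1 samples lower than their Fer1 samples in 3 of 3. The difference did not pass without the replicate block, in a fit of only the 4 supernatant groups, without replicate 1 or without replicate 2.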

How the results depend on the processing

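No setting reversed a member gene that had passed. The number of members passing in Fer1 against medium was 4, and 2 (Id3 and Bmp2) without the replicate block and 1 to 4 when a replicate number was left out, with 1 (Id3) without replicate 2. In 4OHT against ctrl 1 member was past both thresholds, 2 with DESeq2 and with no filter on low counts, 0 without the replicate block and in a fit of only the groups compared, and 0 to 2 with a replicate left out. In 4OHT against 4OHT+Fer1 the 2 members became 1 without the block and 0 to 2 with a replicate left out. In 4OHT against medium the 2 became 1 without the block, 4 in a fit of only the groups compared and 0 to 3 with a replicate left out. In ctrl against medium the 3 became 1 to 4 with a replicate left out. The interaction count of 1 was 0 without the block and with only the groups compared, and 0 to 1 with a replicate left out. The other comparison, 4OHT+Fer1 against Fer1, stayed at 0 under all settings. The causes were not tested. A fit without replicate 1 or 2 has 1 medium sample, which is assumed to vary like the other groups, and replicate 3 has no medium sample.

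Small changes that had not passed turned sign. Smad7 in Fer1 against medium ran from -0.54 to 0.22 with a replicate number left out (-0.29 with all), with 0.22 without replicate 2. In 4OHT+Fer1 against Fer1, with a replicate number left out, Id1 ran from -0.18 to 0.57, Skil from -0.0096 to 0.14, Smad6 from -0.90 to 0.0400, Tgfbr1 from -0.44 to 0.0544, Tgfbr2 from -0.52 to 0.0183 and Smad7 from -0.58 to 0.29. Id1 was -0.0198 there with only the groups compared. In the descriptive comparisons signs turned only with a replicate number left out. Id1 in 4OHT against ctrl ran from -0.54 to 0.91, Id2 from -0.27 to 0.52, Tgfbr2 from -0.77 to 0.31 and Skil from -0.0780 to 0.0196. In 4OHT against 4OHT+Fer1 Id1 ran from -1.09 to 0.81, Id2 from -0.28 to 0.33, Smad7 from -0.74 to 0.33, Tgfbr2 from -0.0383 to 0.59 and Skil from -0.0556 to 0.0750. In the interaction Id1 ran from -1.11 to 1.01, Id2 from -0.34 to 0.43, Smad7 from -0.96 to 0.21, Tgfbr2 from -0.78 to 0.42 and Skil from -0.20 to 0.0293. In ctrl against medium Smad7 ran from -0.30 to 0.11 and Tgfbr1 from -0.0296 to 0.57. In 4OHT+Fer1 against Fer1 Bmp2 could not be fitted with only the groups compared, since the filter removed it.

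Counts over all genes also moved. In Fer1 against medium 927 genes passed, 453 without the replicate block, and 175, 87 and 978 without replicates 1, 2 and 3. In 4OHT against ctrl 143 passed, 276 with DESeq2, 259 with no filter, 6 without the block, 0 with only the groups compared (edgeR), and 2, 0 and 191 without replicates 1, 2 and 3. In 4OHT against 4OHT+Fer1 132 passed, 247 with DESeq2, 230 with no filter, 18 without the block, 37 with only the groups compared, and 0, 0 and 217 without replicates 1, 2 and 3. In 4OHT against medium 394 passed, 97 without the block, 667 with only the groups compared, and 2, 0 and 492 without replicates 1, 2 and 3. In ctrl against medium 1001 passed, 457 without the block, and 157, 87 and 1056 without replicates 1, 2 and 3. In 4OHT+Fer1 against Fer1 3 passed, 9 with DESeq2 and with no filter, 1 without the block, 0 with only the groups compared (edgeR), and 0, 0 and 2 without replicates 1, 2 and 3. In the interaction 4 passed, 72 with DESeq2, 32 with no filter, 2 with only the groups compared, 0 without the block (edgeR), and 0, 0 and 26 without replicates 1, 2 and 3. At 1 to 53 counts, Bmp2 under supernatants is limited by depth.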
